A study of Macaca mulatta with 80 samples.

Results

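The subiculum, the output field of the hippocampal formation that passes CA1 activity on to cortical and subcortical targets, was compared between newborn and 6-month-old rhesus monkeys. The members are the 8 arrays whose source label names the subiculum (Sub) at newborn or 6 months, 4 of each, out of 80 arrays in the series. Each array was read for 19,775 genes, with 1 probe set standing for each gene. The series covers 16 male monkeys at 4 ages, with 5 regions taken from every animal, the others being the dentate gyrus (DG), hippocampal fields CA3 and CA1, and entorhinal cortex (EC). Newborns were 1 day old (numbers 13 to 16), 6-month animals had numbers 9 to 12, and the 4 animals of 1 year and the 4 adults of 6 to 12 years served here to estimate the spread and to show later levels. The one treatment named, an overdose of sodium pentobarbital at the end, was shared by all groups. The tissue was the mid-transverse part of the subiculum with all its layers, so a change in a gene's level cannot be told apart from a change in the number of cells that express it. The array carries probes for human transcripts, and values are log2 signals after quantile normalization, so levels are not compared between genes.

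Postnatal maturation of this tissue has well-known strands. Oligodendrocytes wrap axons in myelin, made of compact membrane lipids and proteins such as MBP, MOG and MAG. Young neurons extend and guide their axons with cytoskeletal regulators such as DCX and the DPYSL family, and with sialylated adhesion molecules, and reduce these as circuits settle. Receptor subunits of early synapses are replaced by mature ones, and glial progenitors differentiate.

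The dissection was compared with marker genes over the newborn and 6-month arrays. Of 15 subicular neuron markers measured, 4 had their highest mean in Sub among the 5 regions: NTS, TLE4, ETV1 and NR4A2. Another 5 were highest in EC, 4 in CA3 and 2 in CA1, so the list as a whole did not single out Sub. NTS, which encodes neurotensin, had a median of 8.76 in Sub (7.69 to 9.39) and 8.47 in neighbouring CA1, against 4.26 in DG, 4.39 in CA3 and 4.32 in EC. SLC17A6, the vesicular glutamate transporter VGLUT2, had a median of 7.61 in Sub and 8.09 in EC, and the serotonin receptor gene HTR2C 5.40 in Sub, 6.58 in CA1 and 6.98 in EC. None of the 10 dentate granule cell markers was highest in Sub. Array correlations were 0.985 to 0.993 within the groups and 0.981 to 0.988 between them. RNA quality was read as the log2 ratio of 3′ to 5′ control probe sets of GAPDH, which rises as long RNA is lost. It was 1.28 to 1.40 in newborns and 1.42 to 1.61 at 6 months, a difference of 0.15 with no overlap (two-sided exact permutation p = 0.0286, the smallest that 4 against 4 allows). The same ratio of actin overlapped, at 3.58 to 3.90 and 3.49 to 4.00 (exact permutation p = 0.486). One adult array, number 4, stood apart with a GAPDH ratio of 2.98, against 1.10 to 1.40 in the other adults. It is in neither group compared, and enters the normalization, the estimate of the spread and the adult levels given for later ages.

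Between birth and 6 months 601 genes changed in the subiculum, which is 3.04% of the genes tested: 301 rose (1.52%) and 300 fell (1.52%), by limma over the 16 Sub arrays at a Benjamini-Hochberg adjusted p under 0.05. Of these, 35 rose and 22 fell by more than 2-fold. The median change of all genes was 0.00. The count depended on adult number 4. Without that array 1199 genes changed (578 higher, 621 lower), and with the 8 newborn and 6-month arrays alone 1526 did (7.72%), 765 higher (3.87%) and 761 lower (3.85%), and the 601 were among them in both fits. With the GAPDH ratio as a covariate 1427 changed. That fit includes adult number 4, whose ratio stood apart. The ratios of newborns and 6-month animals did not overlap, so the fit does not separate RNA quality from age. Leaving out single newborn or 6-month arrays gave 263 to 593, the lowest without number 14, and 283 to 332 without number 10, 11, 12, 13 or 16. The newborn and 6-month values did not overlap in 5.88% of genes with 6 months higher and 5.93% with newborns higher. All adjusted p below come from the 16-array fit unless stated. Counts of list members called below stand against the shares over all genes, 1.52% higher and 1.52% lower. Of the 96 changes called and named below, 46 held with any one array left out. With all probe sets of a gene averaged 32 of the 96 were not called, namely MAG, MOG, CSPG5, NCAM1, STMN1, SLIT2, IGSF3, RPL27A, BHLHE40, KCNA1, MAP1A, SV2C, DLG2, PPP1R9B, GRIN2B, GRIN3A, ADRA1A, DUSP1, LHX6, SEMA5A, POU3F1, MPPED1, TNC, GLI3, NCAN, SPP1, IGF2BP2, COX6A1, NDUFA2, UQCRC2, PKM and BAG3. Of these, RPL27A, NCAN and BAG3 had the same change in both fits and a higher adjusted p.

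The myelin and oligodendrocyte genes that changed all rose. Of 28 members measured 12 rose and 0 fell, with a median change of 0.57 against 0.00 over all genes. The mean over the list was 7.26 to 7.31 in the newborns and 7.80 to 7.97 at 6 months. Fitted on the 8 arrays alone 15 rose, and 15 with the GAPDH ratio as a covariate, which does not separate RNA quality from age. The number called was 6 without number 12, 13, 14 or 16.

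CRYAB, a small heat shock protein abundant in oligodendrocytes, read 7.64, 7.51, 7.29 and 7.46 in the newborns and 9.02, 8.95, 9.42 and 9.60 at 6 months. Every 6-month animal was above every newborn, and the rise was 1.77 on the log2 scale (SE 0.184; 3.42-fold; n = 4 and 4; limma adjusted p = 4.09e-05). MAL, a proteolipid of compact myelin, read 6.98, 7.12, 7.33 and 7.02 at birth and 8.04, 8.38, 8.32 and 8.51 at 6 months. That is a rise of 1.20 (SE 0.115; adjusted p = 2.24e-05), again with no overlap. QDPR, an enzyme that recycles tetrahydrobiopterin, went from 8.45 to 8.74 in newborns to 9.40 to 10.41 at 6 months (rise 1.26, SE 0.174, adjusted p = 0.000695). Both kept their call with any one array left out.

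MAG, the myelin-associated glycoprotein of the inner myelin membrane, read 7.79, 7.59, 8.23 and 7.87 in newborns and 8.69, 9.33, 8.76 and 9.43 at 6 months, a rise of 1.18 (SE 0.284, adjusted p = 0.031). Its groups did not overlap, but the call was lost without number 10, 12, 13, 14 or 16 (adjusted p of up to 0.111). MAG was 8.24 to 9.11 at 1 year and 6.79 to 8.53 in adults, lowest in number 4, which overlaps the newborn range. FA2H, which makes the hydroxylated fatty acids of myelin lipids, rose by 0.79 (SE 0.14, adjusted p = 0.00468), the oligodendrocyte membrane protein OPALIN by 0.74 (adjusted p = 0.00827) and the secreted protease KLK6 by 0.61 (adjusted p = 0.00132). The remaining members that rose were ENPP2 (autotaxin), the carnosinase CNDP1, MOG, PLLP (plasmolipin) and GPR37, by 0.69 to 1.04. These 5 each lost their call without number 12, 13, 14 or 16, and some without further arrays, with adjusted p of up to 0.114.

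MBP, the main protein of compact myelin, read 12.14, 12.17, 12.20 and 12.11 in newborns and 12.89, 12.91, 13.24 and 13.20 at 6 months. The groups were well separated, yet the 16-array fit gave an adjusted p of 0.279, while limma on the 8 arrays alone gave 6.09e-05. ERMN, a cytoskeletal protein of oligodendrocytes, was 5.42 to 5.48 in newborns and 5.86 to 6.97 at 6 months, with an adjusted p of 0.136 in the 16-array fit and 0.00227 on the 8 arrays. CNP and MOBP were not called in either fit (adjusted p = 0.618 and 0.366 over 16 arrays).

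Other large rises lay outside the myelin list. GPRC5B, an orphan receptor, rose by 1.52 (8.07 to 8.43 in newborns, 9.61 to 9.94 at 6 months; SE 0.199; adjusted p = 0.000446). SEPTIN4, a cytoskeletal GTPase, rose by 1.45 (7.14 to 7.52, then 8.46 to 8.85; adjusted p = 0.000266), although 1 of its 2 other probe sets moved the other way. TMEM144 read 4.72, 4.56, 4.56 and 4.57 at birth and 6.53, 5.85, 6.01 and 5.96 at 6 months (rise 1.49, SE 0.193, adjusted p = 0.000403). ANLN, PLEKHB1 and PPP1R14A rose by 1.49, 1.47 and 1.30 (adjusted p = 0.0156, 0.0176 and 0.0215). Each of these 3 lost its call without number 16 and without at least 1 further array, with adjusted p of up to 0.0813. On the 8 arrays alone limma gave them adjusted p of 1.92e-04, 7.38e-06 and 8.07e-05.

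**Figure D1:**
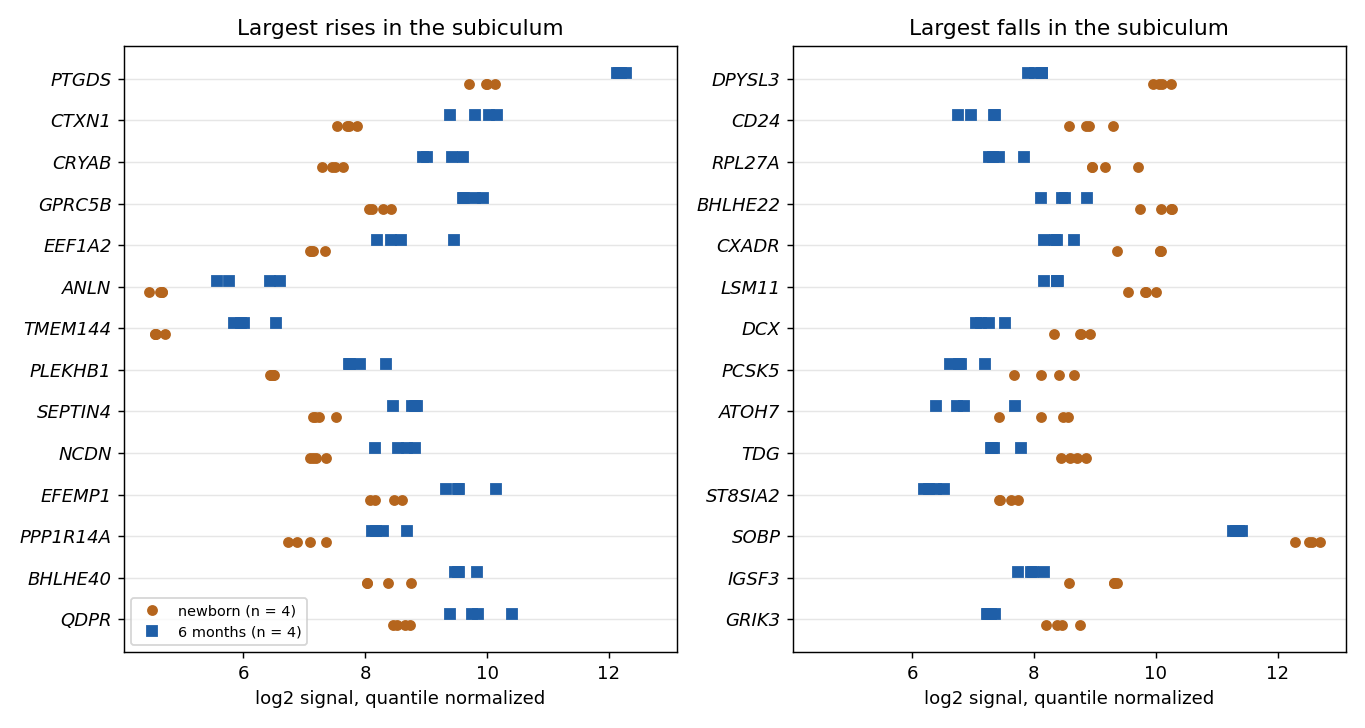
Log2 signal of the 14 genes with the largest rises (left) and the 14 with the largest falls (right), 1 point per subiculum array, circles for newborns and squares for 6 months (n = 4 each). The genes were taken among called genes above the median level, with uncharacterised loci passed over. The groups are separated for every gene shown except ATOH7, where newborn number 15 (7.43) lies below 6-month number 12 (7.69).

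Oligodendrocyte precursor genes changed in both directions. Of 16 measured 1 rose and 2 fell, against 1.52% of all genes each way, with a median change of −0.09. OLIG1, a transcription factor of the oligodendrocyte lineage, rose by 0.82 (7.30 to 7.65 in newborns, 7.93 to 8.66 at 6 months; adjusted p = 0.0314). The metalloproteinase MMP16 fell by 0.68 and the proteoglycan CSPG5 by 0.40 (adjusted p = 0.0447 and 0.0491). All 3 calls were lost without number 10, 12, 13, 14 or 16 (adjusted p of up to 0.147).

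For many myelin genes the change was more positive in the subiculum than in the mean of DG, CA3 and EC. CA1 was left out because an earlier analysis of these data found a high GAPDH ratio there at 6 months. For this test the change from newborn to 6 months in Sub was set against the mean change in DG, CA3 and EC of the same animals, with the animal as the block (limma, 4 against 4 differences). Over all genes 1197 differed (6.05%), 733 with the more positive change in Sub (3.71%) and 464 with the more negative (2.35%). Without the block 664 differed (3.36%). Of the 146 list members and other named genes with a called difference, 84 held with any one animal left out. With all probe sets of a gene averaged 63 of the 146 were not called. Of the 28 myelin genes 17 had the more positive change in Sub and 0 the more negative. The count was 13 without the block, 14 against EC alone, 22 with CA1 included, and 16 to 19 when 1 animal was left out. The median change of the list was 0.57 in Sub, 0.12 in DG, −0.11 in CA3 and 0.08 in EC. Within those regions 2 members rose in DG (1.59% of all genes changed there, 0.753% up) and 0 fell, 0 rose and 4 fell in CA3 (2.18% changed, 0.748% up and 1.44% down), and 0 changed in EC (2.65% changed, 1.43% up and 1.23% down).

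CRYAB had the largest difference of the list. Its change was 1.77 in Sub against 0.14 in DG, −0.01 in CA3 and 0.26 in EC, a difference of 1.64 (SE 0.137, adjusted p = 7.23e-06). MAG changed by 1.18 in Sub against 0.14, −0.82 and −0.07 in the same regions (difference 1.43, adjusted p = 3.91e-05), though its 2 probe sets averaged gave 0.68. QDPR, MAL and CNDP1 had differences of 1.00, 0.91 and 0.96 (adjusted p = 0.000301, 0.000697 and 0.000118). OLIG1 differed by 1.19 (adjusted p = 7.64e-05), with changes of −0.14 in DG, −0.68 in CA3 and −0.31 in EC. MBP had a difference of 0.66 (adjusted p = 0.00694) that was lost without the block (adjusted p = 0.388), with a change of 0.87 in DG. With all probe sets averaged its difference was 0.21 (adjusted p = 0.0673).

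**Figure D2:**
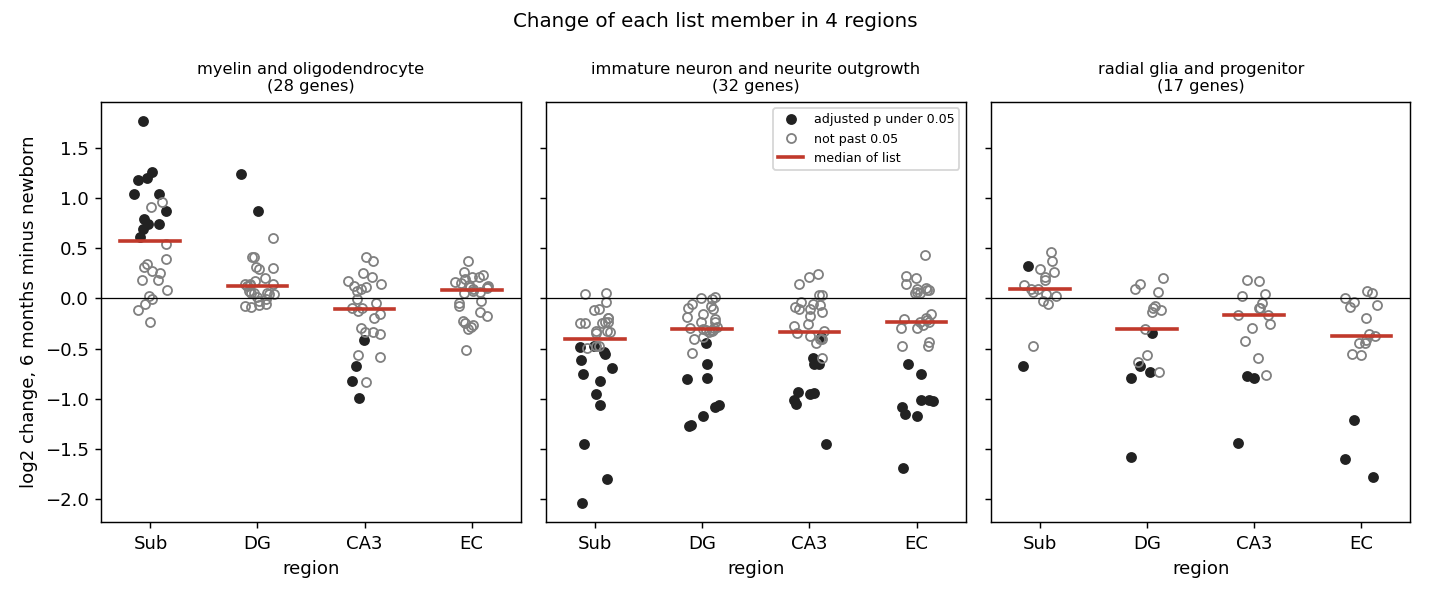
Log2 change from newborn to 6 months of each member of 3 gene lists in Sub, DG, CA3 and EC. Points are genes, filled where limma's adjusted p within that region was under 0.05, and bars are list medians. The myelin median is 0.57 in Sub and between −0.11 and 0.12 elsewhere, the immature neuron medians lie between −0.40 and −0.23, and the radial glia median is 0.09 in Sub and −0.16 to −0.37 elsewhere.

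The genes marking immature neurons and their growing neurites fell where they changed. Of 32 measured 13 fell and 0 rose, with a median change of −0.40. The list mean was 9.03 to 9.21 in newborns and 8.56 to 8.67 at 6 months. On the 8 arrays alone 15 fell, and with 1 array left out 9 to 11 did.

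DPYSL3, a collapsin response mediator of growth cones, read 10.05, 10.25, 9.95 and 10.10 in newborns and 8.01, 8.13, 8.13 and 7.91 at 6 months. It fell by 2.04 on the log2 scale (SE 0.158; 4.12-fold; n = 4 and 4; adjusted p = 2.34e-06), the largest fall among the called genes that are named, although 1 of its 2 other probe sets moved the other way. CD24, a surface glycoprotein of young neurons, read 8.57, 9.30, 8.90 and 8.86 and then 7.36, 6.96, 7.35 and 6.76, and fell by 1.80 (SE 0.179, adjusted p = 3.3e-05). DCX, doublecortin, a microtubule protein of migrating and newly made neurons, read 8.92, 8.76, 8.33 and 8.77 and then 7.53, 7.05, 7.27 and 7.13, and fell by 1.45 (SE 0.136, adjusted p = 2.06e-05). In each of these 3 genes the lowest newborn lay above the highest 6-month animal, and every call held with any one array left out.

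NREP, a small neuronal regeneration protein, fell by 1.06 (SE 0.171, adjusted p = 0.00274), with 11.42 to 11.50 in newborns and 10.22 to 10.55 at 6 months. SOX11, a transcription factor of young neurons, fell by 0.95 (adjusted p = 0.00376) and DPYSL5 by 0.82 (adjusted p = 0.00112). The adhesion molecule NCAM1 fell by 0.75, the semaphorin co-receptor PLXNA4 by 0.61 and the tubulin-binding stathmin STMN1 by 0.55 (adjusted p = 0.00702, 0.00783 and 0.00951). These 6 also kept their call with any one array left out. SOX4, the guidance ligand SLIT2, the tubulin TUBB2B and the growth-cone protein GAP43 fell by 0.69, 0.53, 0.48 and 0.47, with calls that were lost without number 10, 11, 13, 14 or 16 (adjusted p of up to 0.15).

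A gene outside the list acts on one of its members. ST8SIA2, the enzyme that puts polysialic acid on NCAM1, read 7.44, 7.62, 7.42 and 7.74 in newborns and 6.19, 6.39, 6.53 and 6.28 at 6 months (fall 1.21, SE 0.125, adjusted p = 4.09e-05). Its groups did not overlap.

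The fall of these genes was also seen in other regions. Of the same 32 genes 9 fell in DG (0.834% of all genes fell there), 10 in CA3 (1.44%) and 9 in EC (1.23%), with list medians of −0.30, −0.33 and −0.23. Set against the mean of those regions, 6 genes had a more negative change in Sub and 2 a more positive one (3 and 1 without the block). The shares over all genes were 2.35% and 3.71%. DPYSL3 changed by −1.27 in DG, −1.05 in CA3 and −1.69 in EC, a difference of −0.70 (adjusted p = 0.000465), and CD24 had a difference of −0.91 (adjusted p = 0.00429). SLIT2 had a change of −0.53 in Sub against −0.07, 0.24 and 0.43 in DG, CA3 and EC (difference −0.73, adjusted p = 0.000569). SOX4 and MARCKSL1 went the other way, with differences of 0.49 and 0.72 (adjusted p = 0.0172 and 0.00138). The first was lost without the block (adjusted p = 0.166) and with all probe sets averaged (adjusted p = 0.116). For DCX the difference was −0.34 (adjusted p = 0.206).

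Other large falls included regulators of transcription and adhesion. BHLHE22, a transcription factor of projection neurons, read 10.09, 10.25, 9.74 and 10.26 in newborns and 8.87, 8.11, 8.51 and 8.46 at 6 months (fall 1.60, SE 0.259, adjusted p = 0.00274). CXADR, the coxsackie and adenovirus receptor and a cell adhesion molecule, fell by 1.51 (adjusted p = 0.000914), with newborn number 15 at 9.37 and the other newborns at 10.07 to 10.09. LSM11, a component of the histone mRNA processing machinery, fell by 1.47 (9.54 to 10.00, then 8.17 to 8.40; adjusted p = 2.34e-06). The protease PCSK5 fell by 1.36, the DNA glycosylase TDG by 1.22 and the adhesion protein IGSF3 by 1.18 (adjusted p = 0.000443, 0.00112 and 0.00265), although 2 of the 3 other probe sets of IGSF3 moved the other way and the average of all gave −0.25 (adjusted p = 0.163). ATOH7 fell by 1.23 (adjusted p = 0.00832), the single gene among the 14 largest falls with overlapping groups.

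SOBP, a zinc finger nuclear protein, read 12.56, 12.52, 12.29 and 12.70 in newborns and 11.41, 11.26, 11.31 and 11.36 at 6 months, a fall of 1.19 (SE 0.181, adjusted p = 0.00164). Its 7 other probe sets all moved down. In DG, CA3 and EC the change was −0.10, −0.39 and −0.14, and the difference was −0.97 (adjusted p = 7.64e-05), or −0.22 with all probe sets averaged (adjusted p = 0.103). RPL27A, a protein of the large ribosomal subunit, fell by 1.73 (8.95 to 9.71, then 7.27 to 7.83; adjusted p = 0.0458). That call was lost with any one of the 8 arrays left out of the 16-array fit (adjusted p of up to 0.144). The adults, which enter that fit, ranged from 7.38 to 10.37, and limma on the 8 arrays alone gave an adjusted p of 1.87e-05. The difference of RPL27A from the other regions was −1.44 (adjusted p = 6.44e-05). None of the 22 genes on the ribosomal protein list changed by limma over 16 arrays (2 at an unadjusted p under 0.05, and 1 on the 8 arrays), and the list median was 0.02.

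Glutamate receptor genes fell where they changed. Of 22 measured 5 fell and 0 rose, and the list median was −0.00. GRIK3, a kainate receptor subunit, read 8.38, 8.75, 8.46 and 8.19 in newborns and 7.36, 7.23, 7.25 and 7.29 at 6 months, a fall of 1.16 (SE 0.144, adjusted p = 0.000266). GRM7, a presynaptic metabotropic receptor, fell by 0.82 and GRIK1, a second kainate subunit, by 0.67 (adjusted p = 0.00376 and 0.00375). GRIN3A, an NMDA receptor subunit typical of young synapses, fell by 0.69 (9.26 to 9.34, then 8.48 to 8.78; adjusted p = 0.0137, and 0.0514 without number 10).

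GRIN2B, the NMDA receptor subunit that prevails before maturation, read 7.90, 7.65, 7.60 and 7.54 in newborns and 7.45, 6.76, 7.12 and 6.93 at 6 months, a fall of 0.61 (SE 0.158, adjusted p = 0.0452). The call was lost without any of numbers 10 to 16, with adjusted p of up to 0.157, and 1 of its 2 other probe sets moved the other way. GRIN2A, the subunit that joins mature receptors, was 9.51 to 9.69 at birth and 9.66 to 9.83 at 6 months, with overlap (change 0.16, adjusted p = 0.605). GRIK3, GRM7 and GRIN2B had the more negative change in Sub than in DG, CA3 and EC, by −0.71, −0.64 and −0.69 (adjusted p = 0.00366, 0.00244 and 0.00567). GRIN2B changed by −0.03, −0.15 and 0.44 in those regions, and its difference was −0.09 with all probe sets averaged (adjusted p = 0.835). GRIN3A had changes of −0.61, −1.08 and −0.79 there and a difference of 0.14 (adjusted p = 0.617).

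None of the 11 GABA-A receptor and chloride transporter genes changed by limma over 16 arrays (2 at an unadjusted p under 0.05), and 1 did on the 8 arrays. SLC12A5, the neuronal chloride extruder KCC2, was 10.20 to 10.27 in newborns and 10.30 to 10.68 at 6 months, with no overlap and a change of 0.28 (adjusted p = 0.265). SLC12A2, the chloride importer NKCC1, overlapped (change 0.15, adjusted p = 0.788), as did GABRA2 (change −0.14, adjusted p = 0.883).

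Of 24 sodium and potassium channel genes 1 rose, KCNA1, an axonal delayed rectifier. It read 7.63, 7.54, 7.64 and 7.62 in newborns and 8.42, 8.12, 8.28 and 8.26 at 6 months, a rise of 0.66 (SE 0.137, adjusted p = 0.0132, and 0.0506 without number 14). SCN3A, the sodium channel of immature neurons, was 8.53 to 9.19 and then 7.91 to 8.40, and its mature counterpart SCN1A was 5.29 to 5.80 and then 5.92 to 6.55. Both pairs of groups were separated, in opposite directions. Their adjusted p were 0.166 and 0.218 over 16 arrays, and 0.00237 and 0.0172 on the 8 arrays.

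Genes of the mature axon gave a mixed picture, with 3 of 16 higher and 1 lower. CNTNAP1, the paranodal protein at the edge of the node of Ranvier, rose by 0.60, MAP1A, a microtubule protein, by 0.71 and KCNAB2, a potassium channel subunit, by 0.66 (adjusted p = 0.0265, 0.0265 and 0.0087). Only the call of KCNAB2 held with each array left out, those of the others being lost without any of numbers 10 to 15 (adjusted p of up to 0.0983), and both other probe sets of MAP1A moved the other way. NEFM, the medium neurofilament, read 11.03, 11.13, 11.11 and 11.25 in newborns and 10.46, 10.49, 10.38 and 10.27 at 6 months (fall 0.73, SE 0.18, adjusted p = 0.0356). That call was lost with any of the 8 arrays left out, while limma on the 8 arrays alone gave NEFM an adjusted p of 1.43e-04. Its changes were −0.16 in DG, 0.31 in CA3 and 0.57 in EC, where it rose (adjusted p = 0.0331), and the difference was −0.97 (adjusted p = 0.000934).

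Of 24 synaptic vesicle genes 1 rose and 1 fell, with a median change of 0.19 (5 rose and 2 fell on the 8 arrays). CPLX1, a complexin that clamps release, read 8.86, 8.85, 9.47 and 8.54 in newborns and 9.92, 10.26, 10.20 and 10.01 at 6 months, a rise of 1.17 (SE 0.231, adjusted p = 0.00951). SV2C fell by 0.56 (adjusted p = 0.0249), a call lost without number 10, 12, 13, 14 or 16 (adjusted p of up to 0.0943). RAB3A, a vesicle GTPase, was 8.44 to 8.72 and then 8.86 to 9.76 (adjusted p = 0.052, and 0.0037 on the 8 arrays). SYN2, synapsin II, and SV2B had the more negative change in Sub, with differences of −0.85 and −0.66 (adjusted p = 9.16e-05 and 0.00553), the second lost with all probe sets averaged (adjusted p = 0.402). SYN2 changed by −0.36 in Sub against 0.41 in DG, 0.67 in CA3 and 0.38 in EC.

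In the postsynaptic density 2 of 18 genes rose and 1 fell. PPP1R1B (DARPP-32), a phosphatase inhibitor downstream of dopamine receptors, rose by 0.97 (7.01 to 7.40, then 7.70 to 8.53; adjusted p = 0.0189). PPP1R9B, spinophilin, rose by 0.73 and the scaffold DLG2 fell by 0.42 (adjusted p = 0.0301 and 0.014). All 3 calls were lost without number 10, 12 or 13 (adjusted p of up to 0.107), and the other probe set of DLG2 moved the other way.

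Immediate early genes, which neurons switch on with activity, had 3 of 18 higher and 0 lower, with a median change of 0.25. ARC, a cytoskeletal protein of active synapses, read 6.01, 5.93, 6.19 and 6.09 in newborns and 6.81, 6.90, 6.83 and 7.56 at 6 months, a rise of 0.97 (SE 0.165, adjusted p = 0.00368). All 4 animals of 6 months lay above the newborns, with number 12 well above the rest. EGR4 rose by 0.90 and DUSP1 by 0.57 (adjusted p = 0.0395 and 0.0265), with calls that were lost without number 10, 12, 13, 15 or 16 (adjusted p of up to 0.139). The change of ARC differed from that in DG, CA3 and EC by 0.84 (adjusted p = 0.00191).

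Few monoamine and acetylcholine receptor, peptide and growth factor genes were called, against 3.04% of all genes. Counts this small are not read as a result about these lists. The adrenergic receptors ADRA1A and ADRA2A went in opposite directions, with a rise of 0.71 and a fall of 0.65 (adjusted p = 0.0262 and 0.0136), the only 2 of 33 monoamine and acetylcholine receptor genes called. ADRA2A read 6.01, 6.15, 5.83 and 6.11 and then 5.39, 5.43, 5.34 and 5.34. Its change was −0.01, 0.21 and −0.04 in DG, CA3 and EC, and the difference was −0.71 (adjusted p = 0.000614). CRH, corticotropin-releasing hormone, was the 1 of 23 neuropeptide genes that changed, with a fall of 0.77 (7.80 to 8.52, then 7.28 to 7.71; adjusted p = 0.0293). Of 30 growth factor and receptor genes VEGFA rose by 0.58 and NRG3 fell by 0.42 (adjusted p = 0.0276 and 0.0289). Except for ADRA2A, whose call was lost only without number 14 (adjusted p = 0.0561), each of these calls was lost without number 11 or 16 and at least 1 further array (adjusted p of up to 0.107).

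Of 17 interneuron genes 2 fell and 0 rose. SLC32A1, the vesicular GABA transporter, read 8.42, 8.22, 8.50 and 8.71 in newborns and 7.81, 7.71, 7.90 and 7.81 at 6 months (fall 0.65, adjusted p = 0.0242), a call lost without number 10, 12, 13, 15 or 16 (adjusted p of up to 0.0892). LHX6, a transcription factor of interneurons from the medial ganglionic eminence, fell by 0.44 (adjusted p = 0.012), and changed by −0.49, −0.56 and −0.59 in DG, CA3 and EC. The list medians were 0.01 in Sub and −0.20, −0.31 and −0.12 in those regions.

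Astrocyte genes had a median change of 0.28, with 2 of 19 higher and 0 lower (7 and 1 on the 8 arrays). ETNPPL, a phospholyase of astrocytes, read 6.33, 6.33, 6.87 and 6.77 and then 7.62, 7.70, 7.63 and 7.50, a rise of 1.04 (SE 0.208, adjusted p = 0.0107). AGT, angiotensinogen, rose by 0.77 (adjusted p = 0.0103). GFAP, the intermediate filament of astrocytes, read 10.41, 9.65, 10.07 and 9.43 and then 10.88, 10.97, 10.37 and 11.27, with a small overlap (change 0.98, adjusted p = 0.183). Its difference from DG, CA3 and EC was 0.97 (adjusted p = 0.00512), and 0.40 with all probe sets averaged (adjusted p = 0.0345).

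More radial glia and progenitor genes fell in the other regions than in the subiculum. In Sub 1 of 17 rose and 1 fell, with a median of 0.09, while the medians were −0.30 in DG, −0.16 in CA3 and −0.37 in EC, where 5, 3 and 3 members fell (0.834%, 1.44% and 1.23% of all genes). Of the 17 genes 9 had the more positive change in Sub and 0 the more negative (4 without the block, and 6 to 9 with 1 animal left out), against 3.71% and 2.35% of all genes. TNC, the matrix protein tenascin C, fell in all these regions: by 0.67 in Sub (8.25, 7.63, 7.93 and 7.85, then 7.08, 7.57, 6.83 and 7.49; adjusted p = 0.0367) and by 1.58, 1.44 and 1.60 in DG, CA3 and EC. The fall was smaller in Sub by 0.87 (adjusted p = 0.000924). GLI3, a transcription factor of hedgehog signalling, rose in Sub by 0.32 (adjusted p = 0.0395). The Sub calls of both were lost without number 11, 13, 15 or 16 (adjusted p of up to 0.136).

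VIM, vimentin, the intermediate filament of radial glia, read 8.84, 8.20, 8.56 and 8.95 in newborn Sub and 8.52, 9.39, 9.03 and 9.09 at 6 months, with overlap (change 0.37, adjusted p = 0.638). Newborn means were 8.64 in Sub, 8.78 in CA3, 10.39 in DG and 10.77 in EC, and its changes were −0.73 in DG, −0.76 in CA3 and −1.78 in EC, a difference of 1.46 (SE 0.113, adjusted p = 3.37e-06). The other probe set of VIM moved the other way in Sub, and the mean of both gave a difference of 0.69. SOX2, PTPRZ1 and ID3, progenitor and glial genes, had differences of 0.63, 0.57 and 0.93 (adjusted p = 0.00164, 0.0107 and 0.000427), of which only that of ID3 held without the block (adjusted p = 0.00526). That of SOX2 was also lost with all probe sets averaged (adjusted p = 0.148). Markers of meninges moved with EC: 7 of 16 meningeal and fibroblast genes fell there (1.23% of all genes), with a median change of −0.72 and −2.31 for COL3A1. In Sub 1 of the 16 rose, PTGDS, the median change was 0.07, and the list mean was 6.47 to 6.61 in newborns and 6.55 to 6.81 at 6 months. In DG 2 members rose and 3 fell (0.753% and 0.834% of all genes), and 1 rose and 3 fell in CA3 (0.748% and 1.44%). The list medians there were 0.10 and 0.03. Of the 16 genes 6 had the more positive change in Sub and 0 the more negative, against 3.71% and 2.35% of all genes. Among these FN1, CCDC80, COL3A1 and DCN were not called with all probe sets averaged (adjusted p of up to 0.296). The part of meningeal RNA in the differences from the other regions was not tested.

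PTGDS, a synthase of prostaglandin D2 made by meninges and oligodendrocytes, had the largest rise among the called genes above the median level that are named. It read 10.00, 9.71, 10.13 and 9.99 in newborns and 12.17, 12.28, 12.14 and 12.19 at 6 months, a rise of 2.24 (SE 0.18; 4.72-fold; n = 4 and 4; adjusted p = 2.34e-06). The 6-month animals lay close together, far above the newborns, and both other probe sets moved up too. Its changes were 1.22 in DG, 0.61 in CA3 and −0.42 in EC, and the difference was 1.77 (adjusted p = 2.03e-06). In Sub it stayed near that level, with means of 12.17 at 1 year and 12.12 in adults.

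CTXN1, cortexin, is a small membrane protein of cortical neurons. Among the named called genes above the median level it had the second rise and the largest positive difference from the other regions. It read 7.70, 7.53, 7.87 and 7.73 in newborns and 9.40, 10.17, 10.03 and 9.80 at 6 months, a rise of 2.14 (SE 0.228; 4.42-fold; adjusted p = 4.76e-05). In DG, CA3 and EC its changes were 0.11, −0.11 and 0.06, and the difference was 2.13 (SE 0.149, adjusted p = 2.03e-06). The level was as high in Sub at 1 year, at 9.61 to 10.22, but 6.71 to 7.95 in the 4 adults, which spans the newborn range. In DG, CA3 and EC the 12 group means over the 4 ages lay between 7.05 and 7.75.

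EEF1A2, the elongation factor of mature neurons and muscle, followed the same course. It read 7.11, 7.14, 7.34 and 7.09 in newborns and 8.20, 8.58, 8.43 and 9.45 at 6 months (rise 1.49, SE 0.279, adjusted p = 0.00696), then 8.18 to 8.86 at 1 year and 6.61 to 7.84 in adults. Its changes in DG, CA3 and EC were 0.12, 0.02 and −0.04 (difference 1.46, adjusted p = 0.000158). NCDN, neurochondrin, a neuronal protein of neurite outgrowth, rose by 1.34 (7.10 to 7.36, then 8.16 to 8.81; adjusted p = 0.00437), with means of 8.57 at 1 year and 7.50 in adults. Adult numbers 3 and 4 were the low arrays in all 3 genes. Number 4 is the adult array with the high GAPDH ratio, and number 3 was not high in it. The change from 1 year to adult was not tested.

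**Figure D3:**
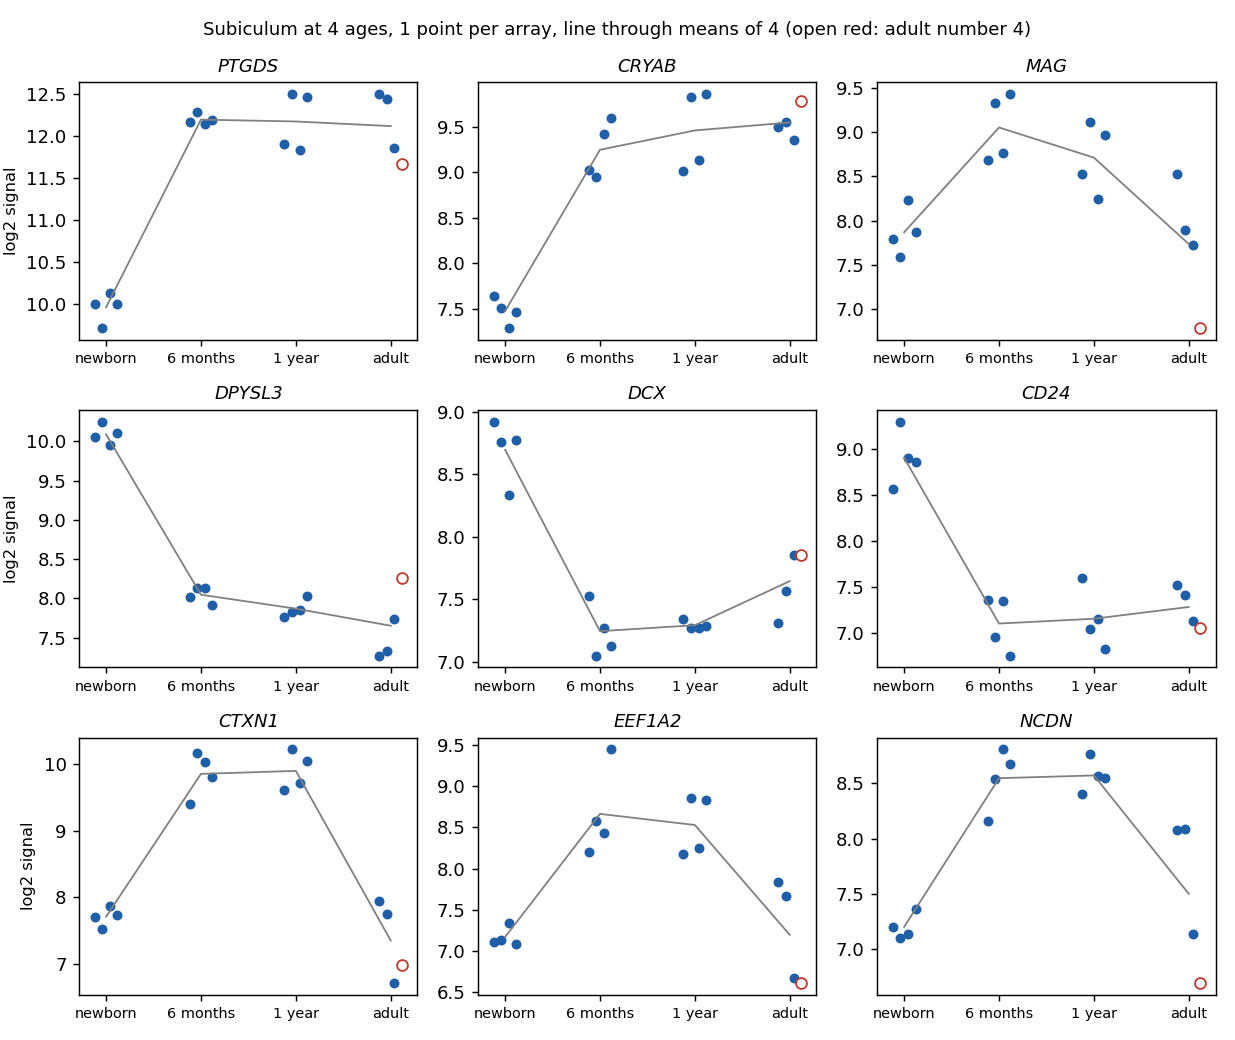
Log2 signal in the subiculum at newborn, 6 months, 1 year and adult for 9 genes, 1 point per array, with a line through the group means (n = 4) and adult number 4 as an open circle. PTGDS and CRYAB stay high after 6 months, DPYSL3, DCX and CD24 stay low, and CTXN1, EEF1A2 and NCDN are high at 6 months and 1 year, with adult means of 7.35, 7.20 and 7.50. MAG is high at 6 months and 1 year and has an adult mean of 7.74, against 7.87 in newborns.

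Further members of the largest rises were EFEMP1, a fibulin of the extracellular matrix, and BHLHE40, a transcription factor of the clock and of activity responses. EFEMP1 rose by 1.31 (8.08 to 8.61, then 9.33 to 10.15; adjusted p = 0.000574), with changes of 1.56 in DG and 1.19 in CA3 and 0.30 in EC. BHLHE40 rose by 1.29 (8.03 to 8.76, then 9.48 to 9.84; adjusted p = 0.0227), a call lost without number 10, 11, 12, 13, 14 or 16. EFEMP1 was the 1 of 20 brain matrix genes that rose. The 4 that fell were TNC, the perineuronal net components NCAN and HAPLN1, and SPARC, a matrix regulator, and the last pair lost their calls without number 11, 12, 13 or 16 (adjusted p of up to 0.14). NCAN, neurocan, read 10.29, 10.19, 9.99 and 10.28 and then 9.28, 9.49, 9.46 and 9.42 (fall 0.78, adjusted p = 0.0476), with separated groups and a call that was lost with any of the 8 arrays left out.

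SPP1, osteopontin, rose by 1.05 (7.20 to 7.70, then 8.20 to 8.73; adjusted p = 0.00321), the 1 of 14 microglial genes called. It went on to means of 9.14 at 1 year and 10.07 in adults. Its changes in DG, CA3 and EC were −0.19, 0.06 and −0.49 (difference 1.26, adjusted p = 0.000194). Its other probe set moved the other way in Sub, and the difference was 0.60 with both averaged (adjusted p = 0.0355). Of the 14 microglial genes 5 had the more positive change in Sub, against 3.71% of all genes. Among them was CSF1R, the receptor that microglia need to survive (difference 0.45, adjusted p = 0.0169, and up to 0.0662 without number 11, 14 or 16). The differences of TYROBP and CX3CR1 were also lost without number 11, 13, 14 or 16 (adjusted p of up to 0.0917). Without the block those of C3 and TYROBP were lost (adjusted p = 0.131 and 0.193). POU3F1, a POU transcription factor, rose by 1.09 (7.19 to 7.49, then 7.93 to 8.66; adjusted p = 0.012) and MPPED1 fell by 0.53, the 2 of 13 CA field markers called. POU3F1 had changes of 0.23, −0.70 and −0.09 in DG, CA3 and EC and a difference of 1.27 (adjusted p = 0.000223). That difference was 0.72 with its probe sets averaged (adjusted p = 0.0181). Of 10 granule cell markers SEMA5A fell by 0.43 (adjusted p = 0.0224). The calls of MPPED1 and SEMA5A were lost without number 10, 12, 13 or 15 (adjusted p of up to 0.123).

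Among imprinted and early growth genes HMGA1, an architectural chromatin protein, rose by 0.79 (adjusted p = 0.00055), and IGF2BP2 and NDN fell by 0.48 and 0.40, 3 of 16 in all. Few energy genes were called, against 1.52% of all genes each way. COX6A1 and NDUFA2 rose and UQCRC2 fell among 26 of oxidative phosphorylation, by 0.61, 0.56 and 0.34, and PKM, pyruvate kinase, rose by 0.90 as the 1 of 21 glycolysis genes. BAG3, a chaperone partner, rose by 0.50 among 9 heat shock genes and IFIT1 by 0.67 among 14 interferon response genes. Of these, the calls of HMGA1, IGF2BP2 and COX6A1 held with any one array left out, and the others were lost without number 11, 12, 14 or 16 (adjusted p of up to 0.161).

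No member was called over 16 arrays in 8 further lists besides the ribosomal and GABA-A lists: 15 subicular neuron, 12 choroid plexus, 30 proliferation, 13 complement and MHC, 18 endothelial and pericyte, 9 globin, 13 cholesterol synthesis and 22 RNA-binding splicing genes. On the 8 arrays limma called 0 proliferation and 0 globin genes, and between 1 and 5 in each of the other 6. At an unadjusted p under 0.05 over 16 arrays there were 6 subicular neuron, 1 choroid plexus, 3 proliferation, 2 complement and MHC, 4 endothelial, 0 globin, 3 cholesterol and 5 splicing genes. The list means of the globins were 5.73 to 6.11 in newborns and 5.71 to 5.91 at 6 months.

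The genes with the more negative change in Sub than in the other regions were led by MALAT1, a nuclear noncoding RNA. It varied widely, at 11.16, 10.49, 10.25 and 8.85 in newborns and 8.42, 9.08, 6.24 and 7.94 at 6 months, and its change of −2.27 was not called (adjusted p = 0.0821). The difference was −2.78 (SE 0.496, adjusted p = 0.00267), and −0.46 with all its probe sets averaged (adjusted p = 0.0752).

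SH3GL2, endophilin A1, which shapes membrane in synaptic vesicle recycling, was steadier. It read 9.84, 9.87, 9.61 and 9.80 in newborns and 9.43, 9.39, 9.24 and 9.41 at 6 months, with separated groups (change −0.41, adjusted p = 0.255, and 0.00792 on the 8 arrays). It rose in DG by 1.13 and in CA3 by 0.71 (adjusted p = 0.000104 and 0.0217), changed by 0.34 in EC (adjusted p = 0.252), and differed by −1.14 (adjusted p = 1.23e-05). DNAJC7, a cochaperone, and RUNX1T1, a transcriptional corepressor of neurons, differed by −1.10 and −1.06 (adjusted p = 0.000226 and 0.00149). With all probe sets averaged these differences were −0.43 and −0.46 (adjusted p = 0.0128 and 0.0465). RUNX1T1 fell within Sub by 0.94 (9.73 to 10.30, then 8.69 to 9.28; adjusted p = 0.0434), a call lost with any of the 8 arrays left out. Limma on the 8 arrays alone gave it an adjusted p of 8.82e-04. RAP1GDS1 differed by −1.05 (adjusted p = 0.000118), a call that held with any one animal left out (−1.16 to −0.97). With all probe sets averaged the difference was −0.33 (adjusted p = 0.0477). In Sub newborn number 15 read 8.28 against 10.18 to 10.77 in the other newborns. Newborn values also spread widely in DG (6.57 to 9.24), CA3 (6.89 to 9.68) and EC (7.37 to 10.03). Without the block, which sets each animal's Sub against its other regions, the adjusted p of RAP1GDS1 was 0.471.

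**Figure D4:**
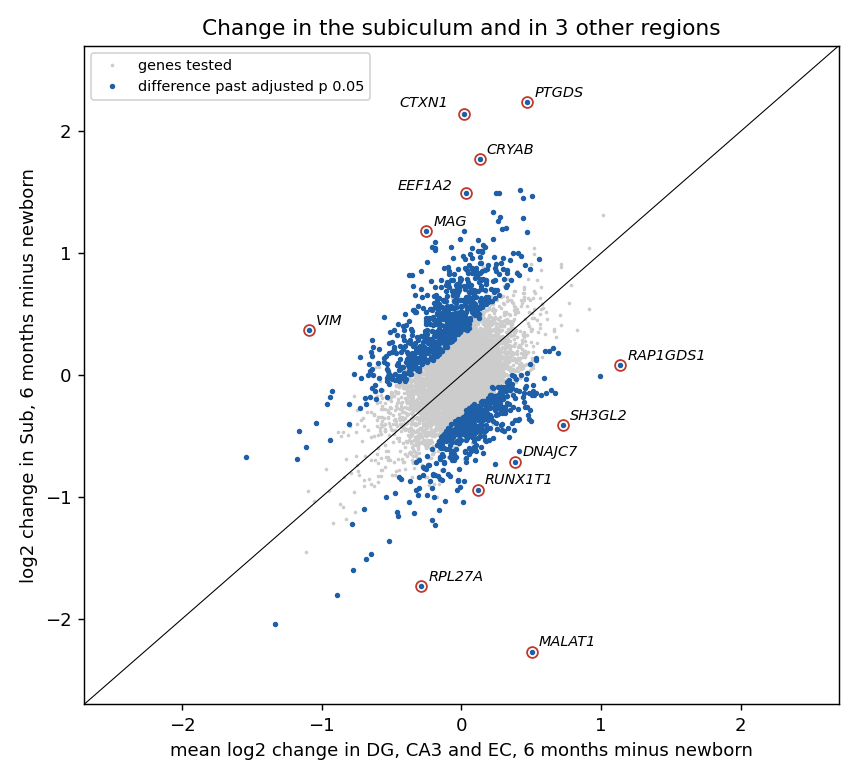
Log2 change from newborn to 6 months in the subiculum (vertical) against the mean change in DG, CA3 and EC (horizontal), 1 point per gene for 19,775 genes, with the line of equal change. Filled points are the 1197 genes past an adjusted p of 0.05 in the blocked test. Circled names are the 6 largest differences in each direction among those above the median level, with uncharacterised loci passed over.

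A minority of the genes that rose in the subiculum also rose in DG, CA3 or EC, at shares above those of all genes. Of the 301, 30 rose in DG (9.97% of the Sub genes and 20.1% of those that rose in DG), 16 in CA3 (5.32% and 10.8%) and 23 in EC (7.64% and 8.16%). Of the 300 that fell, 53 fell in DG (17.7% and 32.1%), 61 in CA3 (20.3% and 21.5%) and 55 in EC (18.3% and 22.6%). Over all genes 0.753% rose in DG, 0.748% in CA3 and 1.43% in EC, and 0.834%, 1.44% and 1.23% fell. The opposite direction was called for 0 genes in DG, 7 in CA3 and 5 in EC. The regions come from the same animals, and a gene missing from a region's calls is not shown to differ there.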

How the data were processed

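The log2 values deposited by the authors were used, 1 per probe set (54,675) and array. The algorithm behind them is not given in the sources used here. Array quartiles spread over 0.120, 0.106 and 0.120, above a limit of 0.05, so the 80 arrays were quantile normalized together (limma 3.58.1, R 4.3.3). Of the probe sets 41,091 carried 1 gene symbol, and that with the highest mean stood for a gene.

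Changes within the subiculum were fitted with limma (lmFit, eBayes) on its 16 arrays. Differences from DG, CA3 and EC were fitted on within-animal differences, since each monkey gave all regions. Deviations from the group means correlated at 0.120 on average between arrays of 1 animal and at −0.0400 between animals of 1 age, and 28 of 48 same-number pairs were over 0.1. The second value largely follows from the first, because deviations within a group cancel out. Adjustment was Benjamini-Hochberg over 19,775 genes, two-sided, called under 0.05. On simulated data changes of 0.5 and 1 were recovered in 63% and 95% of genes (14 false calls) for the subiculum, and 40% and 95% (7 false) for the differences. In it 100 genes of 19,775 were changed by each size. Its noise was independent for each gene and array, without an effect of the animal. It therefore does not show how the blocked test performs where arrays of 1 animal correlate.

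The genes named are the 14 largest rises and falls, 6 largest differences each way, up to 5 members of each of 35 lists with the smallest p, and fixed receptor and channel pairs. The rises, falls and differences were taken among genes called in the same fits and above the median level. Uncharacterised loci were passed over. Other list members were named after their values were seen. Members and lists were chosen with earlier results of these data known. Each animal is 1 sample of its group. The number of arrays limits the precision. No sequences are printed.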

Additional observations from a re-analysis of the deposited data

Results flagged for a closer look

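Single arrays stood apart from the other 3 of their group, by more than the 95% critical value of Dixon's test, in 27 of 426 groups of 4 tested over 213 genes. Chance gives about 1 in 20. Among genes called between newborn and 6 months these were TMEM144 in newborn number 13 (4.72 against 4.56 to 4.57), CXADR in newborn number 15 (9.37 against 10.07 to 10.09), LSM11 in 6-month number 12 (8.17 against 8.38 to 8.40), TDG in 6-month number 9 (7.79 against 7.30 to 7.34), IGSF3 in newborn number 15 (8.57 against 9.32 to 9.36), KCNAB2 in newborn number 15 (7.10 against 6.84 to 6.86) and GRIN3A in newborn number 14 (9.26 against 9.33 to 9.34). The others were CRH in 6-month number 12 (7.71 against 7.28 to 7.33), ARC in 6-month number 12 (7.56 against 6.81 to 6.90), EGR4 in newborn number 13 (7.31 against 7.70 to 7.77), MMP16 in 6-month number 9 (8.70 against 8.14 to 8.22), SOX11 in 6-month number 9 (7.45 against 6.76 to 6.82), ENPP2 in newborn number 15 (9.42 against 9.60 to 9.60) and CNDP1 in 6-month number 9 (6.91 against 6.44 to 6.51). Among genes not called they were GRIN2A in 6-month number 9 (9.66 against 9.82 to 9.83), GABRA2 in 6-month number 9 (8.57 against 7.88 to 7.91), SLC12A2 in 6-month number 9 (6.21 against 5.76 to 5.82), VAMP2 in newborn number 16 (8.27 against 8.10 to 8.12), GABRA5 in newborn number 16 (6.00 against 6.39 to 6.42) and CALB1 in newborn number 15 (7.17 against 6.47 to 6.58). Further ones were TNR in 6-month number 12 (8.85 against 8.97 to 8.99), TYROBP in 6-month number 10 (6.92 against 7.20 to 7.26), B2M in newborn number 15 (7.15 against 6.66 to 6.73), IFIT3 in newborn number 13 (5.90 against 5.61 to 5.65), SLC2A1 in 6-month number 9 (7.76 against 8.07 to 8.10), HBE1 in 6-month number 10 (5.57 against 5.37 to 5.39) and EBP in newborn number 14 (8.17 against 7.83 to 7.87).

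Listed here are the 12 named genes with the largest differences between the change in the subiculum and the mean change in DG, CA3 and EC. They were chosen among genes already called by the blocked limma test, so their passing it is no further evidence. The positive differences were 2.13 for CTXN1, 1.77 for PTGDS, 1.64 for CRYAB, 1.46 for VIM, 1.46 for EEF1A2 and 1.43 for MAG. The negative ones were −2.78 for MALAT1, −1.44 for RPL27A, −1.14 for SH3GL2, −1.10 for DNAJC7, −1.06 for RUNX1T1 and −1.05 for RAP1GDS1. Of these 12, RAP1GDS1 was the one past an adjusted p of 0.05 only with the block.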

How the results depend on the processing

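The 601 genes called in the subiculum became 1526 on the 8 newborn and 6-month arrays alone (765 higher, 761 lower), 1199 without adult number 4 (578, 621) and 1427 with the GAPDH ratio as a covariate (688, 739), and all 601 were in each. Values as deposited, centring, a filter on level and a trended robust fit gave 502 to 611, and the mean of all probe sets 426 (235 higher, 191 lower). Of the calls 50.1% were higher, 46.9% as deposited and 47.7% after centring. With 1 array left out the count was 263 to 593 (higher 131 to 297, lower 132 to 296), and 208 genes were called throughout.

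The 1197 differences from DG, CA3 and EC became 664 with no replicate block (423 positive, 241 negative), 684 for the mean of all probe sets (475, 209), 1801 with CA1 included (1073, 728) and 701 to 1298 with 1 animal left out (445 to 790, 246 to 508). Of the genes followed, the change of DLG2 reversed to 0.06 with all probe sets averaged (adjusted p = 0.946), and the differences of EGR4 and DUSP6 to −0.11 and −0.42 against EC alone (adjusted p = 0.853 and 0.0858). The causes were not tested. Signal near background and probes of human sequence limit low genes.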
